A study of Homo sapiens with 4 samples.

Results

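ID1, ID2, ID3 and ID4, the ligand genes BMP4 and BMP7, and the pathway inhibitors SMAD6, SMAD7, BAMBI and NOG were followed in H9, a human embryonic stem cell line. These 10 genes were taken by symbol from the 36601 genes counted and were read in every cell with at least 4000 UMIs, at least 1000 detected genes and at most 20% of its UMIs from mitochondrially encoded genes. A UMI, or unique molecular identifier, counts each captured RNA molecule once.

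The 4 libraries came from SIRT1 knockout and wild-type H9 cells, each at day 6 and at day 0 of a protocol that leads towards dopaminergic neurons. RNA was read from transcript 3′ ends in single cells. Each of the 4 groups was 1 library, so a ratio between 2 libraries has no replicate check and carries no p-value. A fit of genotype and day as additive terms over the 4 libraries is given as well. The labels call the knockout a deletion of Sirtuin 1. Which part of the gene was removed, whether the cells were 1 clone, and which agents the protocol used are not given in the sources used here.

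Bone morphogenetic proteins (BMPs) are secreted ligands that bind paired receptor kinases, which phosphorylate SMAD1, SMAD5 and SMAD9. These enter the nucleus with SMAD4 and switch on target genes, among which the ID genes are the best known. ID proteins carry a helix-loop-helix domain without a DNA-binding region, pair with E proteins and keep proneural factors from binding DNA. In pluripotent cells BMP signalling favours extraembryonic and mesodermal fates and opposes neural ones, and many neural protocols block it.

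The cell filter kept 4419 knockout and 5372 wild-type cells at day 6, and 7275 knockout and 5533 wild-type cells at day 0, which held 51424092 to 73451883 UMIs per library. Median depth per cell was 13169 UMIs in knockout and 8590 in wild type at day 6, and 8367 in knockout and 12645 in wild type at day 0, so depth and genotype were crossed between the days. Any pair of libraries shared between 5 and 18 cell barcodes, at most 0.325% of the smaller library. SIRT1 itself was at 9.95 CPM (counts per 1000000 UMIs of the library's cells) in knockout and 30.2 CPM in wild type at day 6, and at 7.11 CPM in knockout and 32.3 CPM in wild type at day 0. A 3′ count does not show whether the remaining transcripts encode the protein. The pluripotency factor POU5F1 was at 182 CPM in knockout and 185 CPM in wild type at day 6, and at 911 CPM in knockout and 838 CPM in wild type at day 0. Of 8 floor plate markers only FOXA2 reached 10 CPM at day 6, with 101 CPM in knockout and 91.4 CPM in wild type, and SHH and LMX1A stayed below 3 CPM in both. Of 8 neural progenitor markers 4 reached 10 CPM in knockout and 3 in wild type at day 6. The list summed to 284 CPM in knockout and 173 CPM in wild type, of which FABP7 held 121 CPM in knockout and 20.4 CPM in wild type.

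A gene counted as measured if at least 1 of the compared libraries held it at 10 CPM or more. It was called higher or lower where the ratio of CPM was at least 1.5-fold and its 95% interval excluded 1. These intervals are exact conditional binomial ones, cover counting error only, and compare libraries rather than conditions. With 3′ counts a level does not depend on transcript length, so levels of different genes are compared here as UMIs per 1000000. From summed counts alone, fewer cells expressing a gene and less RNA per cell cannot be told apart.

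ID1 was lower in knockout at both days. Of its relatives, ID4 was lower with it at day 6, while ID3 at day 6 and ID2 at day 0 were higher. At day 6, 7 of the 10 genes were measured: ID3 was called higher in knockout, ID1, ID4 and BMP4 lower, and ID2, BMP7 and SMAD7 neither. Among all 8723 genes measured in that comparison 21.8% were called, 17.4% higher and 4.36% lower. At day 0, 5 of the 10 were measured: ID2 was called higher, ID1 and BMP7 lower, and ID3 and SMAD7 neither. There 3.53% of 9095 genes were called, 1.48% higher and 2.05% lower. Over the measured genes of the 10 the log2 ratios had medians of -0.18 (day 6) and -0.10 (day 0), against 0.25 (day 6) and -0.01 (day 0) over all measured genes. The split of all calls depended on the scaling: at day 6 it was 1521 higher and 380 lower on library totals, and 645 higher and 718 lower with TMM factors, which centre the bulk of genes. At day 0 it was 135 higher and 186 lower on totals, and 168 higher and 121 lower with TMM factors.

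**Figure D1:**
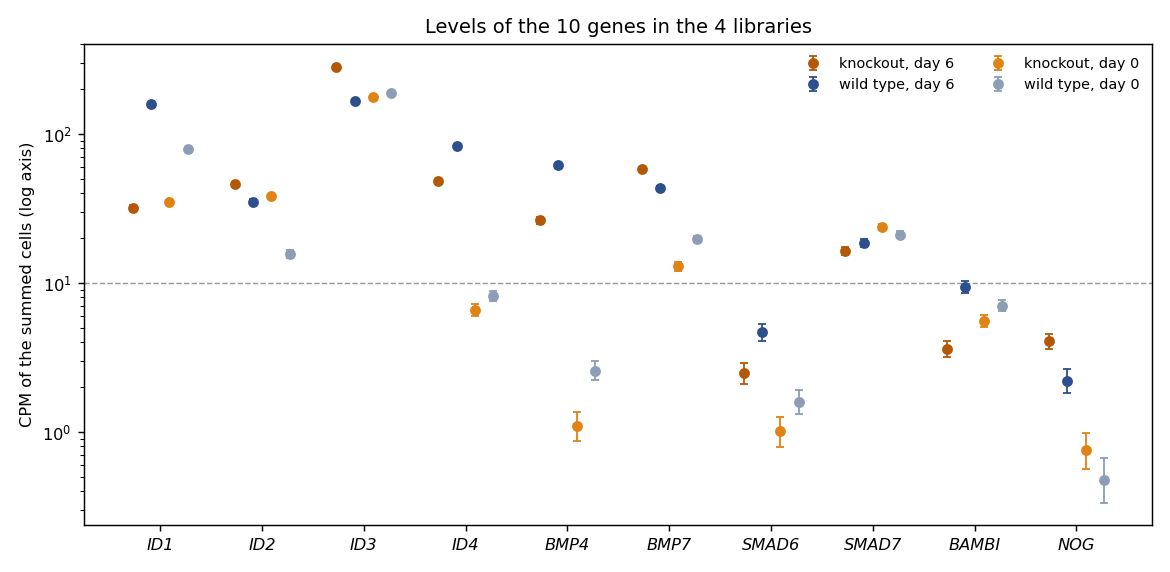
Level of each of the 10 genes in CPM (log axis) in the 4 libraries, knockout in orange shades and wild type in blue shades, with exact Poisson 95% intervals for counting error; the dashed line marks 10 CPM. ID1 sits apart by genotype at both days, BMP4 and ID4 are far higher at day 6 than at day 0 in both genotypes, and SMAD7 stays between 16.4 and 23.7 CPM throughout.

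The 4 ID genes lie on different chromosomes of GRCh38. ID1 is at chr20:31605283-31606515 on the plus strand, ID2 at chr2:8678845-8684453 on the plus strand, ID3 at chr1:23557918-23559794 on the minus strand and ID4 at chr6:19837386-19840684 on the plus strand. The 250 bases before the RefSeq start (GRCh38.p14) are shown for ID1 and ID4, the ID genes that were lower in knockout at day 6. Their windows are chr20:31605039-31605288 and chr6:19837120-19837369, both on the plus strand. The last 6 bases of the ID1 window lie inside the GENCODE gene span and none of the ID4 window does. The windows of ID2 and ID3 lie wholly inside their gene spans and are described only. Capitals mark the motifs searched: the SMAD-binding letters CAGAC, the BMP-SMAD letters GGCGCC and the CCAAT box on either strand, so that GTCTG and ATTGG count too, and TATAAA on the gene's own strand.
ID1: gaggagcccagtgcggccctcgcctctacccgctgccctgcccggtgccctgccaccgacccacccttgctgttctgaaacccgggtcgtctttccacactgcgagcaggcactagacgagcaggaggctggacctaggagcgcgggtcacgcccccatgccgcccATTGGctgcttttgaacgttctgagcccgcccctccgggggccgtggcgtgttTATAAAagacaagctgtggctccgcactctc
ID4: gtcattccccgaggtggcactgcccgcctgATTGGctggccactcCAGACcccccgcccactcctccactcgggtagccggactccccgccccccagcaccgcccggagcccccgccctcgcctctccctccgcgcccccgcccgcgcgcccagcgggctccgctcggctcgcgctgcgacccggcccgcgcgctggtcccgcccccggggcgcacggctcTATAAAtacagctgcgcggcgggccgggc
The ID1 window held 1 CCAAT box and 1 TATAAA, and the ID4 window 1 CAGAC, 1 CCAAT box and 1 TATAAA. The ID2 window held 3 CCAAT boxes and the ID3 window 1 CAGAC. None of these 4 windows held GGCGCC, and in the windows shown no motif overlapped another. Of 35116 promoter windows of this length, 38.0% held CAGAC, 16.4% GGCGCC, 32.0% CCAAT and 6.80% TATAAA, counted in the same way. A match is a description of letters and not a binding site.

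ID1, the ID gene most often used as a readout of BMP signalling, had 31.9 CPM in knockout and 158 CPM in wild type at day 6. At day 0 it had 34.8 CPM in knockout and 79.4 CPM in wild type. Both knockout libraries were thus below both wild-type libraries. ID1 fell in knockout by 4.95-fold (4.72 to 5.20) at day 6 and by 2.28-fold (2.18 to 2.39) at day 0. The day 0 call was lost when only knockout cells whose chromosome 20 share reached 3% were used, with a log2 ratio of -0.53 against -1.19 over all cells. Per cell at equal depth ID1 was also found less often in knockout. After each cell was thinned to 4000 UMIs, which left out none, 10.5% of knockout and 36.3% of wild-type cells had an ID1 UMI at day 6, and 11.4% of knockout and 24.5% of wild-type cells at day 0. Unthinned, the shares were 26.2% of knockout and 54.4% of wild-type cells at day 6, and 24.8% of knockout and 52.1% of wild-type cells at day 0. Free RNA making up 10% of a cell would give between 1.58% and 5.72% of cells an ID1 UMI at the thinned depth.

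ID3, the most abundant ID gene in every library, went the other way at day 6. It had 282 CPM in knockout and 166 CPM in wild type at day 6, and 176 CPM in knockout and 188 CPM in wild type at day 0. The knockout library at day 6 stood above the rest, which lay close together. The ratio was 1.70-fold higher in knockout (1.65 to 1.74) at day 6, and 0.934 (0.912 to 0.957), not called, at day 0. With TMM factors the day 6 log2 ratio was 0.55, no longer called, against 0.76 on library totals, and 0.48, also not called, in knockout cells whose chromosome 20 share reached 3%. At the thinned depth ID3 was found in 56.6% of knockout and 41.1% of wild-type cells at day 6, and in 47.0% of knockout and 48.1% of wild-type cells at day 0, where free RNA would give at most 12.2%.

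ID2, which restrains neuronal differentiation as its relatives do, was set apart at day 0. It had 45.9 CPM in knockout and 34.6 CPM in wild type at day 6, and 38.2 CPM in knockout and 15.6 CPM in wild type at day 0. Wild type at day 0 was the low library. The ratio was 2.46-fold higher in knockout (2.29 to 2.63) at day 0 and 1.33 (1.25 to 1.41), not called, at day 6. ID2 had a UMI in 13.3% of knockout and 10.3% of wild-type cells at day 6, and in 13.6% of knockout and 6.14% of wild-type cells at day 0, after thinning.

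ID4, prominent in neural precursors, was mainly a day 6 gene. It had 48.0 CPM in knockout and 83.1 CPM in wild type at day 6, and 6.55 CPM in knockout and 8.19 CPM in wild type at day 0. Both day 6 libraries differed from each other and stood well above the day 0 ones. ID4 fell in knockout by 1.73-fold (1.65 to 1.81) at day 6, and its day 0 log2 ratio of -0.32 came from levels below 10 CPM. After thinning, 14.2% of knockout and 21.9% of wild-type cells had an ID4 UMI at day 6.

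Summed over the 4 genes, ID transcripts differed far less than ID1 alone. The sum was 408 CPM in knockout and 442 CPM in wild type at day 6, and 256 CPM in knockout and 292 CPM in wild type at day 0. The make-up of that sum differed instead. ID1 held 7.83% of ID UMIs in knockout and 35.8% in wild type at day 6, and 13.6% in knockout and 27.2% in wild type at day 0. ID3 held 69.2% in knockout and 37.6% in wild type at day 6, and 68.9% in knockout and 64.6% in wild type at day 0. In wild-type cells at day 6, ID1 was found in 52.9% of thinned cells with an ID2 UMI and in 34.4% of those without. In knockout cells at day 6 these shares were 12.1% with an ID2 UMI and 10.3% without. Of the ID gene pairs in wild type at day 6 this one differed most, and it does not stand for the rest. ID3 was found in 41.4% of wild-type day 6 cells with an ID4 UMI and in 41.0% of those without. In knockout at day 6 the ID3 shares were 51.6% with an ID4 UMI and 57.4% without.

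**Figure D2:**
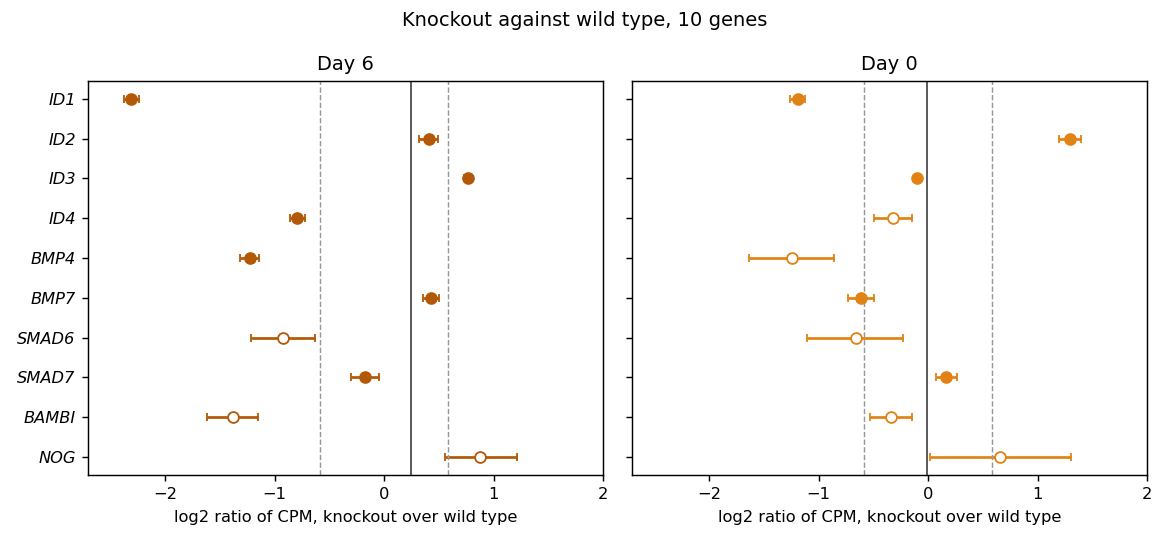
Log2 ratio of CPM, knockout over wild type, for each gene at day 6 and at day 0, with exact 95% intervals for counting error; open points are genes under 10 CPM in both libraries, dashed lines mark 1.5-fold and the solid line the median of all measured genes. ID1 lies below every other gene at day 6 at -2.31, while ID3 lies on the opposite side of 0 from ID1 and ID4.

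BMP4, the ligand used to drive extraembryonic and mesodermal fates, was switched on between the days in both genotypes. BMP4 is at chr14:53949736-53958761. It had 26.2 CPM in knockout and 61.4 CPM in wild type at day 6, and 1.09 CPM in knockout and 2.57 CPM in wild type at day 0. Day 6 was higher than day 0 by 24.1-fold (19.2 to 30.5) in knockout and by 23.8-fold (20.6 to 27.8) in wild type. The near equality of these folds depended on the setting. Over the alternatives run, the log2 ratio went from 3.39 to 5.56 in knockout and from 4.42 to 4.99 in wild type. The knockout level at day 0 was also below the 6.08 CPM of BMP4 in that library's free RNA. BMP4 fell in knockout by 2.34-fold (2.21 to 2.48) at day 6. This call was lost in knockout cells whose chromosome 20 share reached 3%, at a log2 ratio of -0.06 against -1.23 over all cells. The day 0 ratio was 0.423 (0.322 to 0.552), from 80 knockout and 189 wild-type UMIs. At the thinned depth 8.24% of knockout and 17.0% of wild-type cells had a BMP4 UMI at day 6, where free RNA would give 1.30% in knockout and 2.47% in wild type.

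BMP7, a second ligand of the same pathway, did not follow BMP4. BMP7 is at chr20:57168748-57266629, on the same chromosome as ID1. It had 57.8 CPM in knockout and 43.0 CPM in wild type at day 6, and 12.9 CPM in knockout and 19.7 CPM in wild type at day 0. The genotypes thus changed places between the days. BMP7 fell in knockout by 1.53-fold (1.40 to 1.66) at day 0, just past the limit, and its day 6 ratio was 1.34 (1.27 to 1.42), not called. The day 0 call was lost with TMM factors, at a log2 ratio of -0.54, and in cells with at least 8000 UMIs, at -0.53.

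The inhibitors were mostly scarce. SMAD6 is at chr15:66702228-66782848, SMAD7 at chr18:48919853-48952052, BAMBI at chr10:28677342-28682939 and NOG at chr17:56593699-56595590. SMAD7, which blocks receptors of both the BMP and the TGF-beta branch, was the exception with 16.4 CPM in knockout and 18.6 CPM in wild type at day 6, and 23.7 CPM in knockout and 21.1 CPM in wild type at day 0. Its ratios of 0.885 (0.811 to 0.967) at day 6 and 1.12 (1.05 to 1.20) at day 0 were not called. SMAD6, BAMBI and NOG stayed under 10 CPM in all 4 libraries and so were not called.

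BAMBI, a receptor-like protein without a kinase domain that dampens the signal, had 3.60 CPM in knockout and 9.37 CPM in wild type at day 6, and 5.55 CPM in knockout and 7.03 CPM in wild type at day 0. Its day 6 ratio was 0.384 (0.327 to 0.449), from 235 knockout and 482 wild-type UMIs. With TMM factors BAMBI reached 10 CPM in wild type and was called lower at a log2 ratio of -1.60, against -1.38 on totals. SMAD6, the inhibitory SMAD of the BMP branch, had 2.46 CPM in knockout and 4.67 CPM in wild type at day 6, a ratio of 0.528 (0.430 to 0.647), and 1.01 CPM in knockout and 1.59 CPM in wild type at day 0. NOG encodes Noggin, which sequesters BMP ligands outside the cell. It had 4.04 CPM in knockout and 2.20 CPM in wild type at day 6, a ratio of 1.84 (1.47 to 2.31), and 0.749 CPM in knockout and 0.477 CPM in wild type at day 0. Summed over each library, the knockout was thus below wild type in BAMBI and SMAD6 and above it in NOG, at both days. For NOG at day 0 this rested on 55 knockout and 35 wild-type UMIs, a ratio of 1.57 (1.01 to 2.47).

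Between the days, the comparisons in each genotype share their libraries with the comparisons above, and the values are given side by side for that reason. In knockout, 7 of the 10 genes were measured: BMP4, BMP7, ID4 and ID3 were called higher at day 6 and none lower, where 34.7% of 9368 genes were called, 13.9% higher and 20.9% lower. In wild type, 7 were measured: BMP4, ID4, BMP7, ID2 and ID1 were called higher and none lower, where 48.9% of 9324 genes were called, 11.7% higher and 37.2% lower. With TMM factors the all-gene split was 1758 higher and 1435 lower in knockout, against 1298 higher and 1956 lower on totals. In wild type it was 2394 higher and 1725 lower, against 1095 higher and 3468 lower on totals. The median log2 ratio of the measured genes of the 10 was 0.68 in knockout and 1.13 in wild type, against -0.09 in knockout and -0.35 in wild type over all measured genes. BMP4 and ID4 were measured through day 6 alone in both genotypes. Neither the counts of called genes among the 10 nor these medians therefore support a direction.

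ID1 was 1.99-fold higher at day 6 than at day 0 in wild type (1.92 to 2.06). In knockout its ratio was 0.916 (0.865 to 0.971), or a log2 ratio of -0.13 on totals and 0.00 with TMM factors. ID3 was 1.60-fold higher at day 6 in knockout (1.57 to 1.64), and its ratio was 0.883 (0.859 to 0.907) in wild type, where the log2 ratio of -0.18 turned to 0.23 with TMM factors. ID2 was 2.22-fold higher at day 6 in wild type (2.06 to 2.40), with a ratio of 1.20 (1.14 to 1.26) in knockout. ID4 was higher in both genotypes, by 7.32-fold (6.65 to 8.08) in knockout and 10.1-fold (9.32 to 11.1) in wild type. BMP7 was higher by 4.48-fold (4.17 to 4.82) in knockout and 2.19-fold (2.05 to 2.34) in wild type. The SMAD7 ratio was 0.694 (0.642 to 0.749) in knockout and 0.880 (0.811 to 0.954) in wild type, the second of which turned to a log2 ratio of 0.22 with TMM factors. Below 10 CPM, NOG had ratios of 5.40 in knockout and 4.61 in wild type, SMAD6 2.45 in knockout and 2.93 in wild type, and BAMBI 0.648 in knockout and 1.33 in wild type.

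In the additive fit by edgeR's quasi-likelihood test, which has 1 residual degree of freedom and takes the genotype difference as equal at both days, none of the 7 measured genes passed an adjusted p of 0.05 for genotype. Over all 9682 genes tested 0.103% did, 0 higher and 10 lower. BMP4 had a log2 difference of -1.36 between knockout and wild type (adjusted p = 0.081), ID1 one of -1.86 (adjusted p = 0.131), ID4 -0.68 (adjusted p = 0.544) and ID2 0.73 (adjusted p = 0.685). These 4 had unadjusted p-values under 0.05, as 627 of all genes did. ID3, BMP7 and SMAD7 had log2 differences of 0.22, -0.20 and -0.12. With DESeq2 in place of edgeR, BMP4 and ID1 passed, among 94 genes. For day 6 against day 0, BMP4, ID4, BMP7 and ID2 passed with edgeR, all higher at day 6, where 35.4% of genes did. Of these, BMP4 and ID4 reached the 10 CPM limit of this fit through day 6 alone.

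Around these genes, 90 further genes of the pathway were read: ligands, receptors, SMADs, secreted and intracellular inhibitors, targets, E proteins and ligand-processing enzymes. Of them 43 were below 2 CPM in every library. At day 6, 29 were measured, and 6 were called higher and 4 lower in knockout, beside 17.4% higher and 4.36% lower over all genes. Their median log2 ratio was 0.37 against 0.25 over all genes. At day 0, 25 were measured and none was called, beside 3.53% of all genes, with a median of 0.04 against -0.01.

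Secreted inhibitors held the largest of these differences at day 6. GREM1, which encodes the BMP antagonist Gremlin, had 0.398 CPM in knockout and 17.6 CPM in wild type, from 26 knockout and 906 wild-type UMIs, a ratio of 0.0226 (0.0147 to 0.0333). At day 0 GREM1 was at 1.77 CPM in knockout and 0.395 CPM in wild type. FST, encoding follistatin, which binds activins and some BMPs, had 135 CPM in knockout and 277 CPM in wild type at day 6, a ratio of 0.486 (0.473 to 0.499). CRIM1, a membrane protein that binds BMPs, was 2.10-fold lower, and TWSG1, a binding partner of chordin, was 1.64-fold higher. Of the 4 measured secreted modulators 3 were thus called lower and 1 higher, beside 4.36% and 17.4% of all genes. GREM1 and CRIM1 were measured through wild type alone and TWSG1 through knockout alone, so no count over them supports a direction. Just under the limit, CHRD, which encodes the BMP antagonist chordin, had 9.17 CPM in knockout and 4.16 CPM in wild type at day 6, higher in knockout as NOG was.

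Among receptors and co-receptors, BMPR2, the type II receptor, was 1.60-fold higher in knockout at day 6 and the co-receptor RGMB 2.30-fold higher, while the other 4 measured (BMPR1A, ACVR1, ACVR2B and RGMA) were not called. SMAD1, SMAD4 and SMAD5 were measured in both comparisons and not called in either. Of 10 measured intracellular and membrane inhibitors, SKIL, a co-repressor of SMADs, was 2.13-fold higher, the phosphatase PPM1A 1.60-fold higher and TOB1 1.89-fold lower. The E protein gene TCF4, whose product pairs with ID proteins, was 1.82-fold higher. With TMM factors BMPR2, TWSG1 and PPM1A were no longer called and BMP2 was called lower. The BMP-induced extraembryonic genes GATA2, GATA3, HAND1, ISL1, TFAP2A and TBX3 were each below 1 CPM in all 4 libraries. The homeobox targets MSX1 and MSX2 were below 10 CPM throughout. At day 6 MSX2 had 0.781 CPM in knockout and 3.85 CPM in wild type, and MSX1 0.903 CPM in knockout and 2.70 CPM in wild type. Other scarce targets went the other way at day 6. HEY1 had 8.08 CPM in knockout and 6.14 CPM in wild type, and ATOH8 1.07 CPM in knockout and 0.583 CPM in wild type. The 2 measured targets outside the ID genes, ZNF423 and BMP2K, were not called at day 6.

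**Figure D3:**
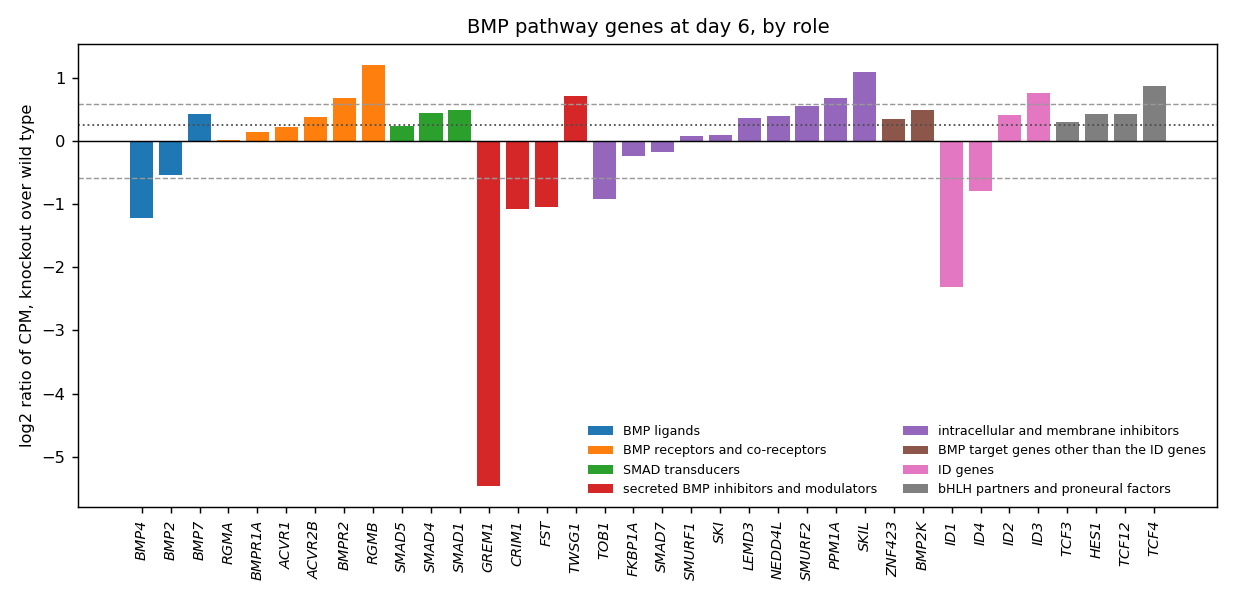
Log2 ratio of CPM, knockout over wild type at day 6, for the measured genes of each role in the BMP pathway. Of the 10 genes the 7 measured ones are included, and SMAD6, BAMBI and NOG are not drawn. Dashed lines mark 1.5-fold and the dotted line the median of all genes, 0.25. GREM1, ID1, BMP4, CRIM1 and FST reach furthest down, and RGMB and SKIL furthest up.

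The 7 mesenchymal markers did not move together at day 6. They summed to 153 CPM in knockout and 454 CPM in wild type at day 6. At day 0 the sum was 120 CPM in knockout and 126 CPM in wild type. COL1A1 held most of the day 6 sum, at 94.6 CPM in knockout and 369 CPM in wild type. At day 6, 3 of the 7 reached 10 CPM in each genotype (COL1A1, COL1A2 and PDGFRB), and these were lower in knockout. The others were scarce and higher in knockout. COL3A1 was at 1.76 CPM in knockout and 0.19 CPM in wild type, and TWIST1 at 6.47 CPM in knockout and 5.27 CPM in wild type. LUM was at 0.49 CPM in knockout and 0.00 CPM in wild type, and DCN at 0.66 CPM in knockout and 0.02 CPM in wild type. Other list sums differed by genotype at day 6 too. The surface ectoderm markers summed to 801 CPM in knockout and 1542 CPM in wild type, nearly all from KRT8, KRT18, KRT19 and EPCAM. KRT5, TFAP2A and GATA3 were below 1 CPM in both. The neural progenitor sum was higher in knockout, mostly through FABP7, at 121 CPM in knockout and 20.4 CPM in wild type. PAX6, SOX1, SOX3 and NES were higher in knockout as well, and OTX2, HES5 and LHX2 lower. The part of cell make-up in these results was not tested.

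Each library was then clustered by itself without the pathway genes, which gave 27 clusters of at least 50 cells, and levels were summed per cluster. Cluster borders are approximate. At day 6, ID1 ran from 20.9 to 53.2 CPM over 7 knockout clusters and from 85.3 to 227 CPM over 5 wild-type clusters. ID3 ran from 250 to 353 CPM in knockout clusters and from 127 to 206 CPM in wild-type ones. ID4 ran from 36.6 to 103 CPM in knockout and from 63.5 to 106 CPM in wild type, and ID2 from 14.4 to 90.2 CPM in knockout and from 19.4 to 61.7 CPM in wild type. Clusters of 1 library are not replicates, and free RNA is shared among them. The same ranges over all genes are not given here, so the separation of ID1 and ID3 is a description only.

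Clusters of the 2 genotypes that shared at least 3 of their 10 leading genes were set side by side, 4 pairs at each day. A pair was counted where its interval excluded 1, without the 10 CPM and 1.5-fold limits. The same counts over all genes are not given here. At day 6 ID1 was lower in knockout in 4 of 4 pairs, by log2 ratios of -2.85 to -1.85, ID4 in 4 of 4 (-1.17 to -0.49) and BAMBI in 4 of 4 (-1.51 to -0.90), each with intervals excluding 1. ID3 was higher in 4 of 4 (0.28 to 0.99). With the 10 CPM and 1.5-fold limits, ID4 was not called in the pair at -0.49, nor ID3 in the pair at 0.28. BAMBI was called only in the pair where wild type reached 12.4 CPM. ID2 was higher in 2 pairs and lower in 2. At day 0 ID1 was lower in 4 of 4 pairs (-2.33 to -0.84) and BMP7 in 4 of 4 (-1.57 to -0.45), with the mitotic wild-type cluster standing in 2 of those pairs, while ID2 was higher in 3 of 4. BMP7 was not called in the pair at -0.45. For SMAD6, BAMBI and NOG at day 0 the interval excluded 1 in 0 of 4 pairs, and NOG ran from -1.64 to 2.50.

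The highest ID1 at day 0 was in a wild-type cluster of 504 cells led by metallothionein genes such as MT1H and MT2A, with 196 CPM. The knockout cluster led by the same gene family, of 394 cells with a median of 22656.5 UMIs, had 38.9 CPM. A mesoderm-like wild-type cluster of 174 cells, with MIXL1, TBXT and EOMES among its raised markers, held ID1 at 124 CPM, ID3 at 477 CPM, BAMBI at 15.0 CPM and BMP4 at 28.9 CPM. That cluster was 3.14% of the wild-type day 0 cells and carried 29.6% of their BMP4 UMIs. ID2 at day 0 in wild type peaked at 94.9 CPM in a neural progenitor-like cluster of 197 cells, where BMP7 was at 64.8 CPM, against 7.32 CPM in a cluster of 1649 cells led by histone genes. In knockout at day 0, ID2 and BMP7 peaked at 64.1 CPM and 44.5 CPM in a mesenchymal-like cluster of 303 cells, which held GREM1 at 37.1 CPM.

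**Figure D4:**
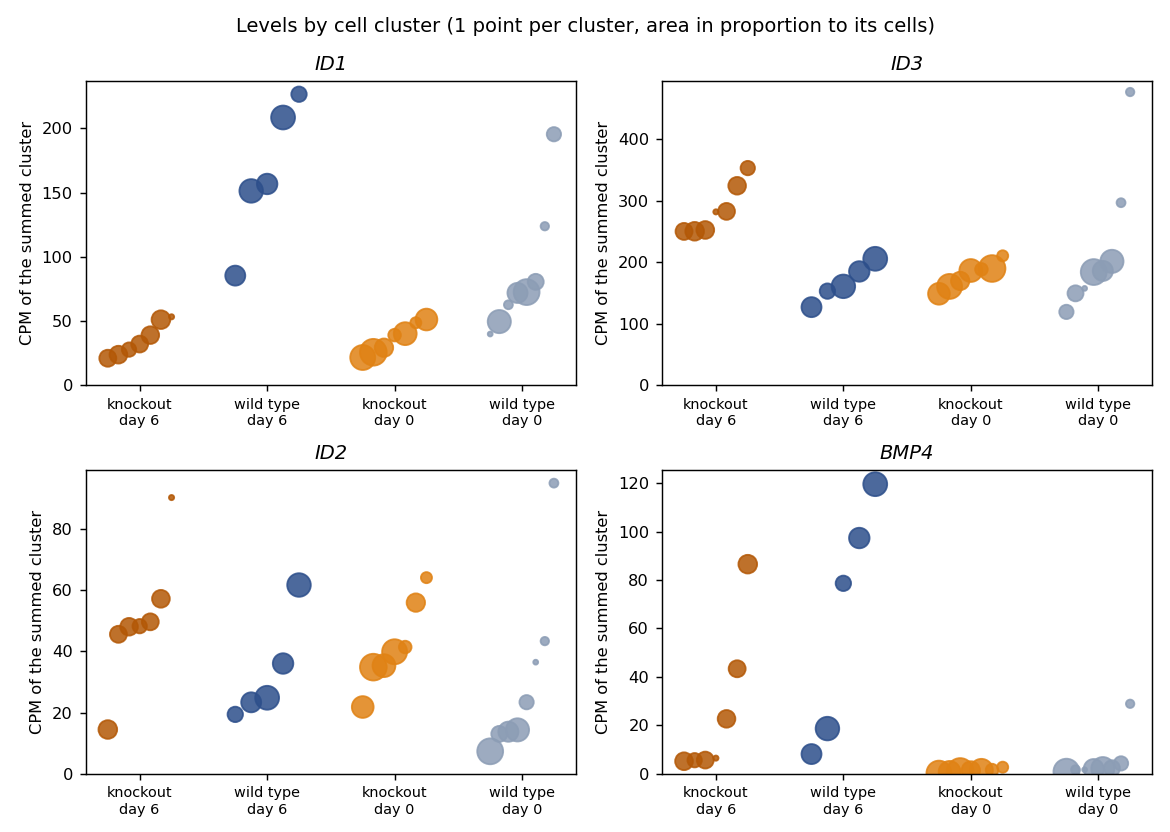
CPM of ID1, ID3, ID2 and BMP4 in each cluster of each library, 1 point per cluster ordered by level, with the area of a point in proportion to its cells. At day 6 the knockout points lie below all wild-type points for ID1 and above them for ID3, while BMP4 is near 0 in several clusters and high in a few of both genotypes.

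BMP4 at day 6 was carried by a few clusters. In knockout, a cluster of 857 cells with FN1, LINC00261 and PROX1 among its leading genes had 86.6 CPM, one of 710 cells led by SIX6 43.4 CPM, the mitotic one 22.7 CPM and the other 4 between 5.16 and 6.44 CPM. In wild type, the cluster of 1403 cells with PROX1, LINC00261 and FN1 had 119.6 CPM, the mitotic one 97.4 CPM, one of 585 cells with CRYAB and ANXA1 78.6 CPM, and the remaining clusters 18.6 and 8.12 CPM. The clusters with FN1 and PROX1 were also those with the highest FOXA2, 235 CPM in knockout and 188 CPM in wild type. In the 4 pairs of clusters BMP4 was lower in knockout in 3, by log2 ratios down to -2.10, and higher in 1, at 1.22.

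GREM1 at day 6 had 64.9 CPM in the wild-type cluster with CRYAB and ANXA1 and 7.37 to 17.3 CPM in the other wild-type clusters, while no knockout cluster was above 0.529 CPM.

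By the pattern over the 27 clusters, ID1 was most like GNPDA1 (Pearson r = 0.81), TSC22D3 (0.78), PIGT (0.78), BCL2L1 (0.77) and BCL9L (0.75), of which PIGT and BCL2L1 also lie on chromosome 20. ID2 was most like SOX9 (0.79), GABARAPL2 (0.77), TCEAL7 (0.77), LTBP4 (0.77) and NNAT (0.77). ID3 was most like GGH (0.86), COMMD8 (0.82), CUL5 (0.81), C12orf75 (0.81) and NUCB2 (0.80). ID4 was most like CAMK2D (0.95), ANP32B (0.94), BTG3 (0.94), RHOB (0.94) and CCND1 (0.93). The 4 ID genes shared no such gene. Among the 10 genes themselves, r was 0.79 for BMP4 with SMAD6, 0.76 for ID4 with BMP7 and -0.27 for ID1 with ID3. Clusters of 1 library share its depth and day, so these values describe the libraries and carry no test.

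Chromosome 20 carries both ID1 and BMP7, and its measured genes tended to lower levels in knockout. The share of a cell's UMIs from chromosome 20, counted without the pathway genes and without ribosomal protein and mitochondrial genes, had a median of 2.32% in knockout and 3.11% in wild type at day 6, and of 2.43% in knockout and 3.32% in wild type at day 0. At day 6, 65.4% of knockout and 6.05% of wild-type cells were below 2.6%, and at day 0 61.5% of knockout and 0.795% of wild-type cells. The median log2 ratio of measured chromosome 20 genes outside the pathway was -0.13 at day 6 and -0.33 at day 0, against 0.26 at day 6 and 0.00 at day 0 over genes of the other chromosomes. Within 2 Mb of ID1, 17 genes were measured, and their log2 ratios had medians of -0.06 (day 6) and -0.34 (day 0), against -2.31 (day 6) and -1.19 (day 0) for ID1 itself. The lowest of these neighbours was at -1.46 at day 6 and -0.91 at day 0. The highest was at 0.47 at day 6 and 0.09 at day 0. Within 2 Mb of BMP7, 16 genes were measured at day 6 and 17 at day 0. Their medians were 0.02 (day 6) and -0.27 (day 0), against 0.43 (day 6) and -0.61 (day 0) for BMP7. They ran from -0.995 to 0.59 at day 6 and from -2.24 to -0.04 at day 0.

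Knockout cells with a share of 3% or more, 1025 at day 6 and 1769 at day 0, had a chromosome 20 median of 0.27 at day 6 and 0.02 at day 0 against wild type. Selecting cells on this share lifts the chromosome's genes in itself. In these cells ID1 had 34.8 CPM at day 6 and 54.9 CPM at day 0, and its log2 ratio to wild type at day 6 was -2.18, still called. BMP7 had 59.2 CPM at day 6 and 18.8 CPM at day 0, with log2 ratios of 0.46 at day 6 and -0.07 at day 0, and its day 0 call was lost. ID2 remained called at day 0, at 0.88.

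Genes on other chromosomes also differed between these cell classes. Within knockout at day 6, BMP4 had 10.1 CPM in cells below 2.6% and 58.9 CPM in cells at 3% or more, a 5.83-fold difference (5.19 to 6.56). Against wild type its log2 ratio was -2.60 in the cells below 2.6%. ID3 at day 6 had 311 CPM in cells below 2.6% and 232 CPM in cells at 3% or more, and ID2 had 53.0 CPM in cells below 2.6% and 31.6 CPM in cells at 3% or more. In the cells at 3% or more ID4 had a log2 ratio of -0.71 to wild type, still called. ID2 and NOG turned direction at day 6 in these cells, at -0.13 and -0.23, against 0.41 and 0.88 over all cells. For day 6 against day 0 in these cells, ID1 and SMAD7 were called lower, at -0.66 and -0.68, against -0.13 and -0.53 over all knockout cells. In knockout cells below 2.6% ID2 was called higher at day 6, at 0.61. The 2 knockout clusters with the most BMP4, at 86.6 and 43.4 CPM, had median chromosome 20 shares of 2.70% and 2.77%, and the 4 other clusters of over 500 cells had 2.18% to 2.36%. The smallest cluster, of 67 cells and among those low in BMP4, is left out here, so this split does not cover every cluster. The part of the chromosome 20 share in these results was not tested.

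**Figure D5:**
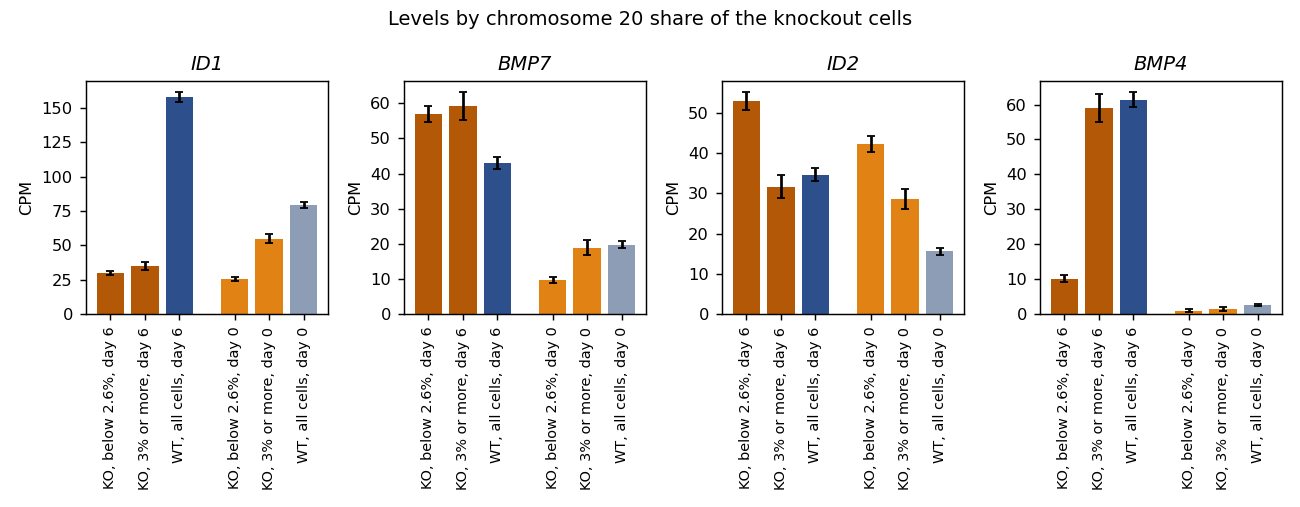
CPM of ID1, BMP7, ID2 and BMP4 in knockout cells with a chromosome 20 share below 2.6%, in knockout cells with a share of 3% or more, and in all wild-type cells, at day 6 and at day 0; error bars are exact Poisson 95% intervals for counting error. ID1 at day 6 is low in both knockout classes, at 29.8 and 34.8 CPM against 158 CPM in wild type, while BMP4 at day 6 is low in the first class only.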

How the data were processed

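Libraries of single H9 cells were made with 10x Chromium 3′ chemistry, per the labels' protocols. The deposited matrices give unscaled UMI counts for each barcode and gene. Per the submitters' processing notes Cell Ranger 6.1.2 and GRCh38 were used, and the matrix header names Cell Ranger 4. An annotation version is not given in the sources. All barcodes are kept in them (1556315 to 1881372 a library), and cells were taken by the filter in the report (2 wild-type cells at day 0 failed the mitochondrial limit). Libraries held 68523677 (knockout) and 54824132 (wild type) UMIs at day 6, and 78917192 (knockout) and 78774434 (wild type) at day 0.

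Counts were summed over cells and scaled to CPM in Python 3.11.15 (scipy 1.17.1). Log2 ratios used a prior count of 0.5. Within a day or genotype each group is 1 library and was not tested. Genotype and day were also fitted as additive terms over the 4 libraries (edgeR quasi-likelihood test, TMM factors, genes at 10 CPM or more in 1 library, Benjamini-Hochberg adjustment), a fit added after the data were seen. The calling step and this fit were tested on simulated counts. Clustering per library used scanpy 1.11.5 (10000 counts per cell, 2000 variable genes, 30 components, 15 neighbours, Leiden resolution 0.5). A cluster was called by a type's name where at least 3 markers of that type were 2-fold higher than in the other cells. Doublets were kept, because Scrublet's automatic limit marked 0 or 1 cell per library. Alternatives were TMM factors (edgeR 4.0.16), DESeq2 1.42.0 size factors, other totals, cells, ambient and fold settings. The free-RNA profile came from barcodes with 1 to 50 UMIs. Gene positions came from GENCODE (GRCh38) by Ensembl identifier, and promoters from RefSeq, which matched 8 of the 10 genes (not BMP7 and NOG).

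All 10 genes are named. Of the wider lists those called are named, with up to 4 per list by size, and for each ID gene the 5 most alike in log2(CPM + 5) among genes averaging 20 CPM. CHRD, MSX1, MSX2, HEY1, ATOH8 and the extraembryonic genes below 1 CPM were chosen after their values were seen. The genes, lists, tests and chromosome 20 limits were chosen with earlier results of these data known.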

Additional observations from a re-analysis of the deposited data

Results flagged for a closer look

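Several genes moved in opposite directions under the same contrast in the other day or genotype. The difference was not tested in any case, since each value compares single libraries.

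For knockout against wild type, the day 6 log2 ratio less the day 0 one was 0.86 for ID3 (0.76 at day 6 and -0.10 at day 0), 1.03 for BMP7 (0.43 at day 6 and -0.61 at day 0) and -0.34 for SMAD7 (-0.18 at day 6 and 0.17 at day 0). For day 6 against day 0, the log2 ratio in knockout minus that in wild type was -1.12 for ID1 (-0.13 in knockout and 0.99 in wild type), 0.86 for ID3 (0.68 in knockout and -0.18 in wild type) and -1.04 for BAMBI (-0.63 in knockout and 0.42 in wild type). These differences combine the same 4 libraries, so the ID3 value is 1 number seen from both sides. With TMM factors ID1 in knockout stood at 0.00, and ID3 in wild type at 0.23, on the same side of 0 as in knockout. BAMBI kept opposite signs with TMM factors, at -0.50 in knockout and 0.82 in wild type, but was under 10 CPM on library totals.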

How the results depend on the processing

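The direction of ID1 in knockout against wild type was the same under every alternative run, at log2 ratios of -2.55 to -2.18 at day 6 and -1.64 to -0.53 at day 0. The number of the 10 genes called, 4 at day 6 and 3 at day 0, became 2 and 1 when knockout cells were limited to chromosome 20 shares of 3% or more, and also 2 and 1 with cells of both genotypes chosen so. With a fold limit of 2 it was 2 at day 6, ID1 and BMP4. Without the limit on low levels it was 7 at day 6 and 6 at day 0, and 7 for day 6 against day 0 in knockout, where 4 were called. No other setting moved one of these counts past 1.5 times, and no called ratio changed sign. Over all genes, the calls at day 6, at day 0, in knockout and in wild type were 1901, 321, 3254 and 4563, and 445, 84, 1343 and 2367 with a fold limit of 2, and 5750, 2457, 8916 and 11291 without the limit on low levels. For the 90 further genes they were 10, 0, 6 and 14, and 5, 0, 3 and 5 with the fold limit of 2, and 30, 13, 30 and 39 without the limit on low levels. In knockout over the days the 6 became 10 in cells with a share of 3% or more and where every cell weighed the same. At day 0 the 0 became 1 in the pluripotent-like clusters and in knockout cells below 2.6%. TMM and DESeq2 factors ended the calls of ID3 at day 6 and BMP7 at day 0. Knockout cells with a share below 2.6%, and both genotypes at 3% or more, were added after the data were seen. With 51424092 to 73451883 UMIs per library, counting error is small beside the unknown spread between cultures. In the additive fit over the 4 libraries, added after the data were seen, 0 of the 10 genes passed for genotype with edgeR, 2 with DESeq2 (ID1 and BMP4) and 3 without the limit on low levels (ID2 too), among 10, 94 and 530 of all genes. For day, 4 passed with edgeR and 7 without the limit, among 3428 and 7421 genes. No paired analysis was possible because no group holds replicates whose numbers could pair them; the additive fit uses the day as its block.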
